A study of Mus musculus with 37 samples.

Results

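The mRNAs described here encode 6 proteins through which a mouse oocyte and the cumulus cells around it signal to each other: the secreted ligands Gdf9, Bmp15, Bmp6 and Fgf8, the receptor Kit, and Gja4 (connexin 37), a protein of their gap junctions. They were chosen by gene symbol and matched by Ensembl identifier to GENCODE M21 on GRCm38, the same assembly as mm10. All 6 were found among the 54844 entries of the gene tables, and 22 of their transcripts among the 138927 entries of the transcript table.

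RNA of 37 single oocytes from C57BL/6 females was sequenced with Smart-seq2 in batches A and B. Batch A held 6 oocytes at the germinal vesicle stage (GV, arrested in prophase) and 6 at metaphase II (MII), and batch B held 10 GV oocytes and 15 at metaphase I (MI). Females were primed with PMSG, and GV oocytes came from their ovaries, MII oocytes from the ampulla after hCG, thus matured in vivo, and MI oocytes from denuded GV oocytes cultured in M16 medium. Oocytes were collected in medium with hyaluronidase, and the zona pellucida and the polar body were removed. MI and MII oocytes were never in the same batch, so stage, culture and batch cannot be told apart between them. The labels name no animal for any oocyte, so every p-value here measures the spread between these oocytes.

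The lowest, median and highest expected counts per oocyte were 7509812, 10013963 and 12648571 in GV of batch A, and 9930422, 10509080 and 13988336 in MII. They were 7184193, 11548239 and 17724506 in GV of batch B, and 2709247, 12840682 and 19390137 in MI. MI oocyte 15 had the fewest counts and the fewest genes detected (12654), and MII oocyte 1 the most genes detected (29816). HTSeq counts per gene were, in the median, 1.13, 1.11 and 1.07 times the RSEM counts in MI oocytes 4, 8 and 9, against at least 1.98 times in each other oocyte. MI oocyte 15 still gave 97.0 expected counts for Bmp6, 182 for Fgf8, 261 for Kit and 345 for Gja4, the lowest counts of these genes in any oocyte.

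Gdf9, Bmp15 and Bmp6 belong to the TGF-β family: they are secreted by the oocyte, bind serine/threonine kinase receptors on granulosa and cumulus cells, and signal there through Smad proteins. Bmp15 and Fgf8 together promote glycolysis in cumulus cells, and Gdf9 promotes their expansion before ovulation. In the other direction, granulosa cells make Kit ligand, which acts on the receptor Kit of the oocyte through PI3K, and small molecules pass from them through gap junctions into which the oocyte places connexin 37.

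The labelled cell type was checked against markers fixed in lists. The 19 oocyte markers, summed as CPM (counts over the TMM-scaled library size, in edgeR's cpm unit), reached a lowest, median and highest value of 9776, 11956 and 14126 in GV of batch A, 7494, 8080 and 8885 in MII, 4628, 6103 and 8025 in GV of batch B, and 4254, 4867 and 5879 in MI. Padi6 was the most abundant of them in GV of batch A and H1foo in the other groups, and Sohlh1 was at 0 in GV of batch A. The 26 granulosa and cumulus markers summed to 25.9, 44.5 and 48.0 CPM in GV of batch A, 29.9, 33.6 and 41.8 in MII, 37.4, 47.4 and 79.4 in GV of batch B, and 30.0, 42.3 and 87.1 in MI, with MI oocyte 15 the highest. Their most abundant gene was Cyp19a1 in the first 3 of these groups and Nr5a2 in MI, and Amhr2 and Ptx3 were at 0 in every oocyte of the groups other than MII. Amh and Foxl2 were also at 0 in both groups of batch B, as were Inhbb, Hsd17b1, Fst and Wt1 in MI. The 16 markers of other ovarian cells summed to a median of 98.7, 49.7, 76.8 and 67.5 CPM in the same order, with Pecam1 the most abundant in all 4 groups. Their sum was highest, 370 CPM, in GV oocyte 4 of batch B, where Pecam1 alone was at 357 CPM. Insl3 was at 0 in every oocyte, and Cdh5 and Adgre1 in every group but MII.

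The members spanned a wide range of abundance. On a per-length scale (RPKM, the CPM of each transcript divided by its length in kilobases and summed over the gene), the group medians in GV of batch A ran from 1173 for Gdf9 through 470 for Bmp15, 197 for Gja4, 63.0 for Fgf8 and 43.8 for Kit to 20.6 for Bmp6. The ranges over the 6 oocytes overlapped for 1 pair of neighbours in this order, Fgf8 and Kit. In MII the median RPKM was 1144 for Gdf9, 480 for Bmp15, 157 for Gja4, 52.0 for Kit, 44.7 for Fgf8 and 17.6 for Bmp6, so Kit and Fgf8 changed places, and again these were the 1 pair of neighbours that overlapped.

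The order differed in batch B. In GV the median RPKM was 1235 for Gdf9, 147 for Bmp15, 124 for Fgf8, 90.7 for Gja4, 45.8 for Kit and 20.4 for Bmp6, and Bmp15 overlapped Fgf8 and Fgf8 overlapped Gja4. In MI the medians were 1005, 124, 109, 85.8, 52.8 and 17.1 RPKM in the same order, and only Gdf9 was separated from its neighbour. Gdf9 was thus the most abundant of the 6 per length and Bmp6 the least in each group's medians.

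**Figure D1:**
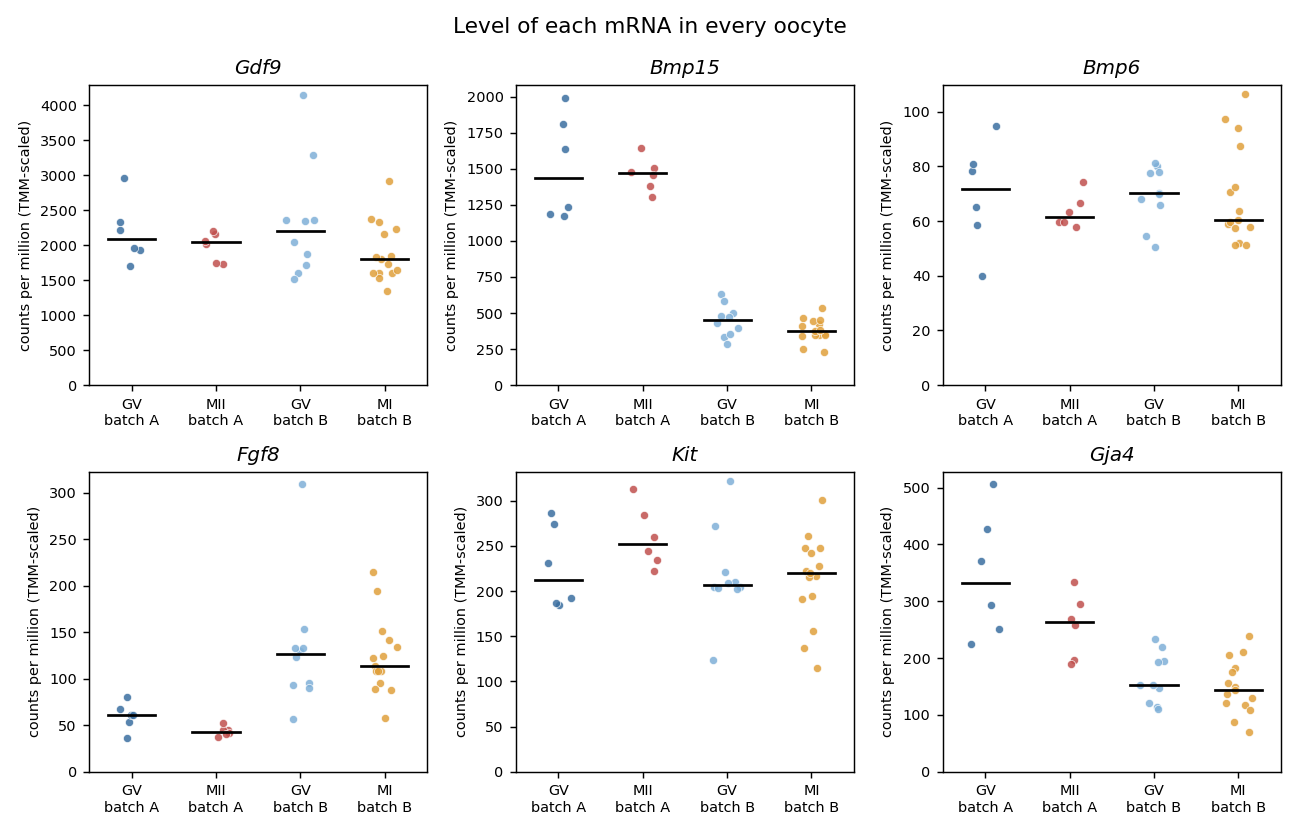
Level of each of the 6 mRNAs in CPM (linear axis from 0, scaled with TMM) in the 37 oocytes, with each point an oocyte, in GV and MII of batch A and GV and MI of batch B. The Bmp15 points of batch B lie at 231 to 629 and those of batch A at 1172 to 1995, while the stages of a batch overlap in all 6 panels.

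Comparing GV and MII oocytes of batch A asks which mRNAs changed in relative abundance over maturation in vivo. With edgeR, 1 of the 6 members (Fgf8) passed at an adjusted p under 0.05, against 20.6% of the 12929 genes tested (9.06% higher and 11.5% lower in MII). At a fold change over 2 as well, edgeR called 0 of the 6, against 8.47% of genes. At an unadjusted p under 0.05 there were 2 of the 6 members (Fgf8 and Gja4), near the share of all genes, 34.3%, and DESeq2 also called 0. The median log2 fold change was −0.19 over the 6 members and 0.01 over all genes tested. Comparing GV and MI oocytes of batch B asks the same for the first meiotic division in culture. There edgeR passed 0 of the 6, against 0.145% of 12419 genes, with 0 members at an unadjusted p under 0.05 and 0 passing with DESeq2. The median log2 fold change was −0.10 over the members and 0.02 over all genes.

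Gdf9 (ENSMUSG00000018238.6, chr11:53431023-53437904, + strand) was at a lowest, median and highest level of 1698, 2084 and 2958 CPM in the 6 GV oocytes of batch A and 1728, 2041 and 2208 CPM in the 6 MII oocytes. The groups overlapped, with 3 GV oocytes above all MII oocytes and 1 below them, and the log2 fold change was −0.19 ± 0.14 (SE, edgeR adjusted p 0.381). In batch B Gdf9 was at 1516, 2195 and 4148 CPM in the 10 GV oocytes and 1346, 1796 and 2909 CPM in the 15 MI oocytes. GV oocyte 2 stood highest and 11 of 15 MI oocytes lay below the GV median, but the ranges overlapped. The log2 fold change was −0.27 ± 0.15 (edgeR adjusted p 0.508, 95% interval −0.56 to 0.02).

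Bmp15 (ENSMUSG00000023279.7, chrX:6314107-6320721, − strand), a close relative of Gdf9 with which it forms dimers, was at 1172, 1437 and 1995 CPM in GV and 1303, 1469 and 1645 CPM in MII of batch A. MII oocytes lay inside the GV range, with a log2 fold change of −0.10 ± 0.15 (edgeR adjusted p 0.671). In batch B it was at 287, 451 and 629 CPM in GV and 231, 378 and 532 CPM in MI. Of the 15 MI oocytes, 12 were below the GV median. The groups overlapped, and the log2 fold change was −0.21 ± 0.13 (edgeR adjusted p 0.590).

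Bmp6 (ENSMUSG00000039004.6, chr13:38345107-38500302, + strand), a bone morphogenetic protein, shares 224 exon bases with Txndc5 on the opposite strand. It was at 39.9, 71.8 and 94.9 CPM in GV and 57.7, 61.6 and 74.4 CPM in MII of batch A. The MII oocytes lay within the GV range, and the log2 fold change was −0.18 ± 0.17 (edgeR adjusted p 0.481). In batch B it was at 50.4, 70.1 and 81.3 CPM in GV and 51.3, 60.5 and 106 CPM in MI. MI oocyte 12 was highest and 4 MI oocytes exceeded all GV oocytes, while 9 of 15 lay below the GV median. The log2 fold change was 0.01 ± 0.14 (edgeR adjusted p 0.989), and it ran from −0.04 without MI oocyte 12 to 0.04 without MI oocyte 14.

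Fgf8 (ENSMUSG00000025219.13, chr19:45736798-45742915, − strand), a fibroblast growth factor, was the 1 member past the test. It was at 36.2, 61.2 and 80.8 CPM in GV and 37.9, 43.2 and 52.2 CPM in MII of batch A. All 6 MII oocytes lay below the GV median and 5 of 6 GV oocytes lay above all MII oocytes, but GV oocyte 2 had the lowest value of either group, so the ranges overlapped. Fgf8 was 1.44-fold lower in MII, a log2 fold change of −0.52 ± 0.17 (edgeR adjusted p 0.0383, 95% interval −0.86 to −0.19). The direction was the same when any 1 oocyte was left out, but the test was passed in 3 of these 12 fits, and without GV oocyte 2 the log2 fold change was −0.64 (adjusted p 0.00558). Without GV oocytes 3, 4, 5 or 6 in turn the edgeR adjusted p was 0.0910, 0.0667, 0.0855 and 0.0559. Without MII oocytes 1, 2, 3, 4 or 5 it was 0.0598, 0.0785, 0.0598, 0.0765 and 0.0698. With the oocyte number as a block, the log2 fold change was −0.49 (edgeR adjusted p 0.0873).

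In batch B Fgf8 was at 57.0, 127 and 309 CPM in the 10 GV oocytes and 58.3, 114 and 214 CPM in the 15 MI oocytes. GV oocyte 7 stood alone at the top, the other 9 reaching 153 CPM, and 10 of the 15 MI oocytes were below the GV median. The log2 fold change was −0.08 ± 0.20 (edgeR adjusted p 0.941), and 0.16 without GV oocyte 7, so its direction rests on that oocyte.

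Kit (ENSMUSG00000005672.12, chr5:75574916-75656722, + strand), the receptor tyrosine kinase for Kit ligand, was at 185, 212 and 287 CPM in GV and 222, 252 and 313 CPM in MII of batch A. No MII oocyte lay below the GV median, 1 was above all GV oocytes, and the ranges overlapped, with a log2 fold change of 0.14 ± 0.15 (edgeR adjusted p 0.520). In batch B Kit was at 123, 206 and 322 CPM in GV and 114, 220 and 301 CPM in MI, with overlap over nearly the whole range. The log2 fold change was −0.01 ± 0.14 (edgeR adjusted p 0.989). It ran from −0.08 without GV oocyte 7, the lowest GV oocyte, to 0.07 without GV oocyte 2, the highest.

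Gja4 (ENSMUSG00000050234.7, chr4:127311421-127314039, − strand) was at 226, 332 and 506 CPM in GV and 189, 264 and 334 CPM in MII of batch A. Of the MII oocytes, 5 of 6 were below the GV median and 2 below all GV oocytes, and 3 GV oocytes were above all MII oocytes. The log2 fold change was −0.49 ± 0.20 with a 95% interval of −0.88 to −0.10, and it missed the threshold over all genes (edgeR adjusted p 0.0911). It passed in 1 of the 12 fits that leave out 1 oocyte, and ran from −0.59 (edgeR adjusted p 0.0409) without GV oocyte 2, the lowest GV oocyte, to −0.34 (0.234) without GV oocyte 4, the highest. The ratio of HTSeq to RSEM counts of Gja4 was 2.13 to 2.25 in GV and 2.29 to 2.38 in MII, without overlap, and the log2 fold change from HTSeq counts was −0.34 (edgeR adjusted p 0.246). In batch B Gja4 was at 110, 153 and 234 CPM in GV and 70.5, 145 and 238 CPM in MI. The ranges overlapped, with 3 MI oocytes below all GV oocytes and 1 above, and the log2 fold change was −0.12 ± 0.17 (edgeR adjusted p 0.856).

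Whether the change to MII differed from the change to MI was tested with each stage set against the GV oocytes of its own batch. With edgeR, 0 of the 6 members passed, against 5.46% of 15083 genes, with 0 at an unadjusted p under 0.05 and 0 passing with DESeq2. The difference of the changes was −0.38 ± 0.32 (log2) for Fgf8 (edgeR adjusted p 0.615), −0.29 ± 0.28 for Gja4 and 0.23 ± 0.23 for Kit. For Bmp15, Gdf9 and Bmp6 it was 0.18, 0.15 and −0.13. The changes of Fgf8 to MII and to MI were thus not shown to differ.

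Batch A held ERCC spike-ins, 44663 to 143062 expected counts per oocyte, and batch B almost none, 0 to 32. Scaling batch A by the spike-ins moved the median log2 fold change of all genes from 0.01 to −0.72, a shift of −0.73. Gja4, counted per 1000 spike-in counts, was at a lowest, median and highest value of 33.6, 59.4 and 64.8 in GV and 19.5, 23.9 and 30.8 in MII, so the groups did not overlap. Fgf8 was at 5.39, 10.7 and 14.2 in GV and 3.61, 4.21 and 4.41 in MII, and here too they did not overlap. Kit, at 17.8, 37.5 and 63.4 in GV and 18.6, 25.7 and 31.5 in MII, overlapped. Gdf9 (181 to 538 in GV, 139 to 232 in MII), Bmp15 (114 to 379, 111 to 172) and Bmp6 (5.95 to 18.2, 4.83 to 7.81) overlapped too. How many of all genes were separated on this scale was not counted. On this scale edgeR gave a log2 fold change of −1.29 for Fgf8 (adjusted p 0.000532), −1.16 for Gja4 (0.000319), −0.94 for both Gdf9 (0.00384) and Bmp6 (0.00823), −0.87 for Bmp15 (0.00831) and −0.62 for Kit (0.0596). So 5 of the 6 members passed, against 43.3% of the 12929 genes. Relative to the median of all genes these were −0.57, −0.44, −0.22, −0.22 and −0.16 for the first 5 and 0.09 for Kit. Fgf8 and Gja4 thus had the lowest log2 fold changes of the members with either scaling, though Gja4 did not pass with TMM. Kit, which passed with neither scaling, was the 1 member above the median gene with both.

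Gdf9 and Bmp15 proteins act together, so the ratio of their counts was taken within each oocyte, which needs no library scaling. The ratio of Bmp15 to Gdf9 counts had a lowest, median and highest value of 0.617, 0.682 and 0.819 in GV and 0.603, 0.764 and 0.837 in MII of batch A. In batch B it was 0.0691, 0.219 and 0.368 in GV and 0.105, 0.207 and 0.290 in MI. The stages of each batch overlapped, whereas every oocyte of batch B was below every oocyte of batch A. GV oocyte 2 of batch B had the lowest ratio and GV oocyte 7 the highest of its group. The difference of mean log2 ratios was 0.10 from GV to MII (exact permutation test, two-sided, p 0.297, adjusted over the 2 tests 0.594). It ran from 0.07 without MII oocyte 6 to 0.16 without MII oocyte 1. The difference was 0.03 from GV to MI (permutation test, two-sided, p 0.891, adjusted 0.891), and from −0.14 without GV oocyte 2 to 0.13 without GV oocyte 7. Per length, the median ratios were 0.398, 0.446, 0.128 and 0.121 in GV and MII of batch A and GV and MI of batch B, and from HTSeq counts, without length scaling, 0.703, 0.787, 0.229 and 0.214.

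**Figure D2:**
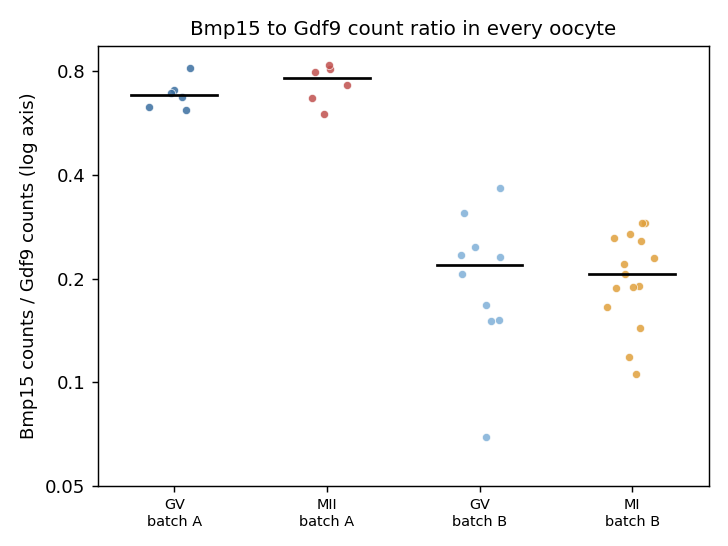
Ratio of Bmp15 to Gdf9 expected counts (log axis) in the 37 oocytes, with each point an oocyte, by batch and stage. The ratios lie at 0.603 to 0.837 in batch A and 0.0691 to 0.368 in batch B, and the stages overlap within each batch.

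At the GV stage, which the batches share, they differed in 3 of the 6 members with edgeR (adjusted p under 0.05 and fold over 2), against 17% of 15083 genes. Bmp15 was 3.39-fold lower in batch B, a log2 difference of −1.76 ± 0.16 (edgeR adjusted p 6.26e-12), with every GV oocyte of batch B below every one of batch A. Gja4 was 2.12-fold lower, −1.08 ± 0.20 (edgeR adjusted p 4.4e-05), with 9 of 10 oocytes of batch B below all 6 of batch A. Fgf8 was 2.18-fold higher, 1.12 ± 0.24 (edgeR adjusted p 0.000336), with 9 of 10 oocytes of batch B above all of batch A. Gdf9, Bmp6 and Kit differed by 0.09 ± 0.17, −0.00 ± 0.17 and −0.06 ± 0.17, with overlapping groups. Levels of MI and MII oocytes were therefore not compared directly. What sets the batches apart was not tested.

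Fgf8 is made in several spliced forms that differ near the start of the protein, and Kit in forms with and without a few residues next to the membrane outside the cell. Of the 22 member transcripts, edgeR tested 15 between GV and MII, and 1 of them passed, against 9.3% of 22461 transcripts. This was Fgf8-202, with a log2 fold change of −0.86 ± 0.25 (edgeR adjusted p 0.0476). Of the 12 fits that leave out 1 oocyte, it passed without GV oocyte 2 (edgeR adjusted p 0.0361) and missed the threshold in the other 11 (0.0512 to 0.106). Fgf8-206 had a log2 fold change of −0.95 ± 0.31 (edgeR adjusted p 0.0688) and Fgf8-201 of −0.42 ± 0.17 (0.150), and both passed without GV oocyte 2 (0.0321 and 0.0481). Without the filter on low counts edgeR passed 0 member transcripts, with Fgf8-202 at −0.90 (adjusted p 0.262). DESeq2 passed 2, Fgf8-202 (−0.87, adjusted p 0.00691) and Fgf8-206 (−0.96, 0.0239), against 3419 of the 22461 transcripts. With spike-in scaling, which moves all transcripts lower together, edgeR passed 9 of the 15, with Fgf8-201 at −1.15 (adjusted p 0.00735) and Fgf8-206 at −1.75 (0.00545), against 5142 of the 22461 transcripts. Between GV and MI, edgeR passed 0 of the 16 member transcripts tested, against 0% of 22717 transcripts. At an unadjusted p under 0.05 these were 2 member transcripts and 1615 transcripts in all, and DESeq2 passed 0 member transcripts and called 103 in all.

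The shares of the transcripts within a gene were compared with edgeR's diffSpliceDGE, which could test Gdf9, Fgf8 and Kit. Between GV and MII it passed 0 of the 3, against 5.51% of 5477 genes, with adjusted p of 0.760, 0.682 and 0.971. Between GV and MI it passed 0 of the 3, against 0.126% of 5535 genes, with adjusted p of 0.937, 0.997 and 0.997. No member was under an unadjusted p of 0.05 in either, and no other tool was run for usage. Fgf8-201 took 38.7% ± 4.32 (SD, n = 6) of the gene's counts in GV and 41.7% ± 4.34 (n = 6) in MII of batch A, and 48.5% ± 12.1 (n = 10) in GV and 59.3% ± 9.03 (n = 15) in MI of batch B. Fgf8-206 took 24.4% ± 7.14, 18.0% ± 4.58, 22.1% ± 9.64 and 16.1% ± 9.09 in the same groups. Both forms were found in every oocyte, and their shares overlapped between the stages of each batch.

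As group means, Kit counts were assigned nearly evenly to its main protein-coding transcripts in all 4 groups. Kit-201 took 42.8% ± 6.10 (SD, n = 6) in GV and 41.8% ± 4.41 (n = 6) in MII of batch A, and 46.4% ± 15.6 (n = 10) and 46.7% ± 11.9 (n = 15) in GV and MI of batch B. Kit-204 took 46.1% ± 6.54, 45.3% ± 3.11, 46.9% ± 14.5 and 46.4% ± 9.99. In single oocytes Kit-201 took from 14.1% to 71.9% in GV of batch B and from 17.3% to 65.2% in MI. Of all exon bases, Kit-201 has 12 and Kit-204 has 39 that the other lacks. Only reads that reach these places tell the 2 apart, so the shares are estimates by RSEM. In coding sequence the 2 transcripts differ by 12 bases, thus 4 codons, that Kit-201 alone has (chr5:75639147-75639158, GRCm38, + strand). The sequence is printed since these bases set the forms of the receptor apart, with the extra bases in capitals and the neighbouring spliced coding bases of Kit-201 in lower case.
Kit-201: catttaaagGTAACAACAAAGagcaaatcc
Kit-208, annotated with a retained intron, took 10.9%, 12.8%, 5.51% and 4.47% on average, and was at 0 in 2 of 6 GV oocytes of batch A, 4 of 10 GV oocytes of batch B and 8 of 15 MI oocytes, and in no MII oocyte. Gdf9-201 took 99.8% to 99.9% of Gdf9 counts and Bmp6-201 took 99.1% to 99.8% of Bmp6 counts as group means, and Bmp15 and Gja4 have 1 annotated transcript each.

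**Figure D3:**
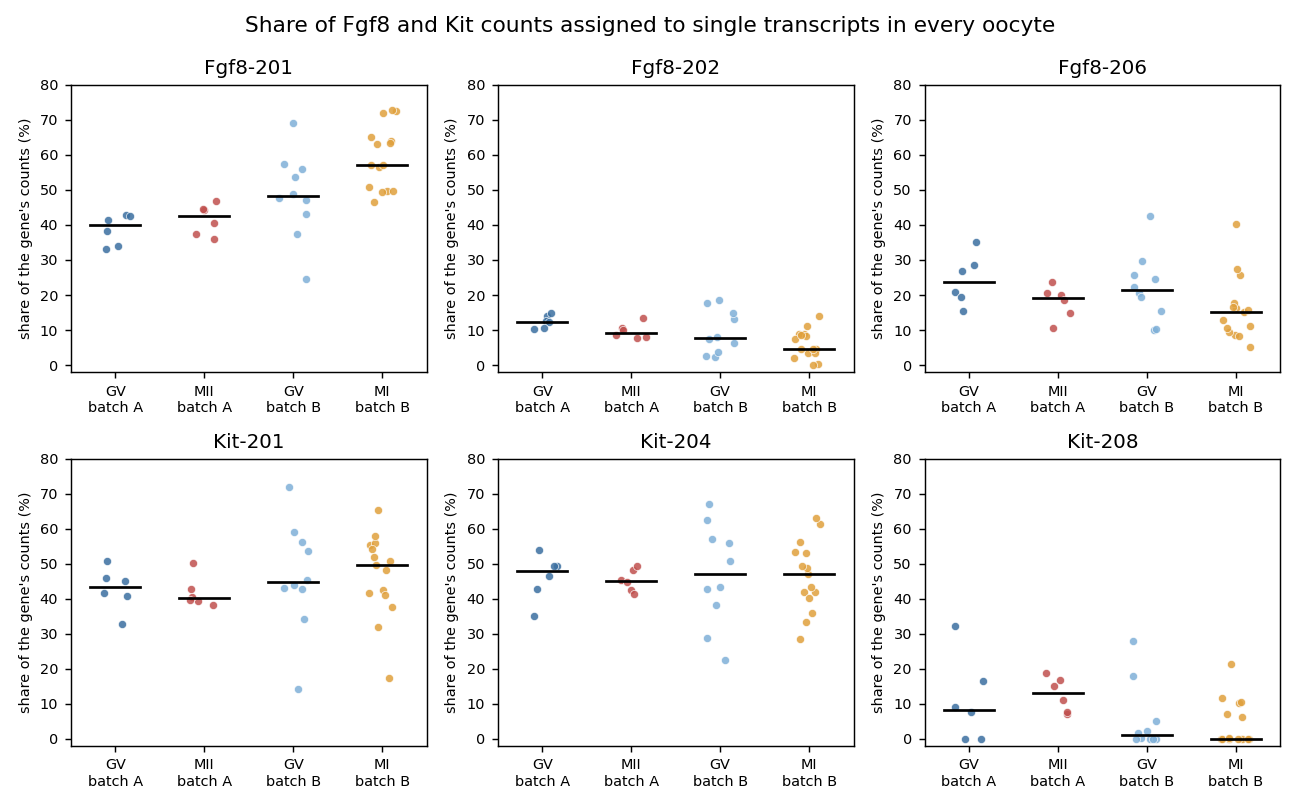
Share of the gene's expected counts (percent) assigned to transcripts of Fgf8 and Kit in the 37 oocytes, with each point an oocyte, in GV and MII of batch A and GV and MI of batch B. Fgf8-201 averages 38.7% to 59.3% over the groups and Kit-201 41.8% to 46.7%, with wider scatter in batch B.

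Oocytes store mRNAs for later translation, and the motif TTTTAT near the 3′ end, a cytoplasmic polyadenylation element, takes part in activating them during maturation. It was searched on the transcript strand in the last 100 bases of 1 transcript per gene: for the members the one with the most counts (Kit-204 for Kit), and for 19923 protein-coding genes the one with the longest 3′ UTR. TTTTAT was present in 2 of the 6 members, Gdf9 and Bmp6, and in 13.7% of these genes. The variant TTTTAAT was in none of the 6 and in 4.96% of genes. These sites are printed because they are where the members differ in this signal, with the motif in capitals, from Gdf9-201 (its motif starting 39 bases before the end) and Bmp6-201 (79 bases).
Gdf9: gagtgctgtggTTTTATgtgacggaagaa
Bmp6: tttattgtctaTTTTATatccattttgct
The polyadenylation signal AATAAA was present in the last 40 bases of Gdf9, Bmp15, Kit and Gja4, and in 59.9% of genes. Fgf8-201 and Bmp6-201 held neither it nor ATTAAA there, while 73.3% of genes held at least one. The annotated ends were used, and where the mRNAs of these oocytes end was not examined here. The authors inferred the use of alternative poly(A) sites in GV and MII oocytes from read coverage. Those sites were not searched for the motifs.
Gdf9: tgtgacggaagAATAAActgttgatggca
Bmp15: taatcttaaagAATAAAttttcatttatg
Kit: tgaagaattctAATAAAaatgtaaatata
Gja4: tatgatcctcaAATAAAcaggactccatc

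The members also differed in how much they varied between oocytes of a group. Among 6421 genes with a mean of at least 100 counts, the median SD of log2 CPM was 0.34 in GV and 0.30 in MII of batch A, and 0.42 in GV and 0.47 in MI of batch B. Bmp15 had an SD of 0.11 in MII, and 4.41% of these genes had a smaller one. The 6421 genes were not matched to the members by level, and Bmp15 averaged 18682 expected counts in MII. Bmp6 (0.14), Gdf9 (0.15), Fgf8 (0.16) and Kit (0.18) were also below the median gene in MII, and Gja4 (0.32) was near it. Bmp6 was at 0.08 without MII oocyte 5, and Fgf8 at 0.10 without MII oocyte 6. In GV of batch A, Bmp15 (0.34) was at the median gene, Gja4 (0.45), Bmp6 (0.44) and Fgf8 (0.39) were above it, and Gdf9 (0.28) and Kit (0.29) below. This order rests on GV oocyte 2, without which Bmp6 (0.27), Fgf8 (0.22) and Bmp15 (0.29) were below the median gene (0.31) and Gja4 alone (0.41) above. Gdf9 was then at 0.18. In GV of batch B, Bmp6 varied least of the members (0.23, with 7.54% of genes smaller) and Fgf8 most (0.63, with 85.8% smaller), but without GV oocyte 7 Fgf8 was at 0.44 and Gdf9 at 0.47. In MI, Gdf9 (0.30), Bmp15 (0.32), Bmp6 (0.35) and Kit (0.37) were below the median gene, and Fgf8 (0.46) and Gja4 (0.48) near it.

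Single oocytes ranked high for some members and low for others. GV oocyte 2 of batch A was highest of its group for Gdf9, Bmp15 and Kit and lowest for Bmp6, Fgf8 and Gja4. GV oocyte 2 of batch B was highest for Gdf9 and Kit and lowest for Bmp15 and Bmp6, and GV oocyte 7 was highest for Fgf8, Bmp15 and Gja4 and lowest for Kit. GV oocyte 7 also had the lowest TMM factor of its group (0.707). These correlations use each oocyte's deviation from its group mean (log2 CPM), and the oocytes compared share library, depth and the scaling, so they are descriptions. Fgf8 and Kit had r = −0.74 over the 12 oocytes of batch A and −0.51 over the 25 of batch B (−0.34 without GV oocyte 7). Over all 37, r was −0.54, and −0.48 without the 2 oocytes farthest from the median. Bmp6 and Fgf8 had r = 0.57 and 0.46 in batches A and B, and Bmp6 and Kit −0.41 and −0.53, but in batch A these were −0.19 and 0.03 without GV oocyte 2, so there they rest on 1 oocyte. Of the 15 pairs of members, 9 had the same sign of r in both batches and 6 did not. Bmp15 was in 5 of these 6, with 0.76 and −0.21 for Gdf9, −0.71 and 0.48 for Bmp6, −0.65 and 0.56 for Fgf8, 0.80 and −0.43 for Kit, and −0.59 and 0.63 for Gja4, in batches A and B. The sixth was Gdf9 and Gja4, with −0.81 and 0.20. Values of batch A leaned on GV oocyte 2, without which Bmp15 had 0.59 with Gdf9, −0.47 with Bmp6, −0.35 with Fgf8, 0.71 with Kit and −0.43 with Gja4. No sign of these 6 pairs changed in either batch without any 1 oocyte, but Gdf9 and Bmp15 were at −0.000156 in batch B without GV oocyte 2. Among the pairs of the same sign, Bmp6 and Gja4 in batch A went from 0.33 to −0.11 without GV oocyte 2. Gdf9 and Kit in batch B went from 0.10 to −0.13 without GV oocyte 2.

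The genes whose levels followed each member most closely were sought among 6106 protein-coding genes, as r of log2 CPM less the batch mean over the 37 oocytes. For Gdf9 they were Dcbld1 (r = 0.66), Trrap (0.61) and Ranbp2 (0.58), and for Bmp15 they were Zfyve21 (0.74), Dph6 (0.73) and Tex30 (0.71). For Bmp6 they were Ube2n (0.67), Dok4 (0.67) and Timm10b (0.66), and for Fgf8 they were Rplp2 (0.78), Tsc2 (0.70) and Tex264 (0.69). Kit was followed by G3bp2 (0.76) and Arhgap35 (0.73), and Gja4 by Pycrl (0.84), Gemin7 (0.82) and Syce2 (0.82). Gja4 thus had the closest followers, and each of them kept r of at least 0.81 in either batch. For Bmp15, Zfyve21 had 0.17 in batch A and 0.82 in batch B, and for Fgf8, Tsc2 had 0.24 and 0.81, so these matches rest on batch B. Without any 1 oocyte, the genes named here kept r of at least 0.53.

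Pathway genes around the members were counted from lists. Of all genes tested, 9.06% passed higher and 11.5% lower from GV to MII, and 0.145% passed from GV to MI. Genes of these lists that passed the test without a fold over 2 were named after their values were seen. A list of 21 receptors and Smads covered the TGF-β family as a whole, not only those of Gdf9, Bmp15 and Bmp6. The counts are those of oocyte libraries, and signalling was not measured. Of the 21, 14 were tested between GV and MII, and 4 passed higher and 0 lower, against 9.06% higher and 11.5% lower of all genes tested (median log2 fold change 0.22). Acvr1, a type I receptor, had a mean ± SD of 3.56 ± 1.61 CPM in GV and 8.21 ± 1.64 CPM in MII (n = 6 each) and rose by 1.15 ± 0.32 on the log2 scale (edgeR adjusted p 0.0178). The others were Smad1 (0.93), Acvr1b (0.57) and Bmpr1b (0.49). With the oocyte number as a block, Acvr1, Smad1 and Bmpr1b did not pass (edgeR adjusted p 0.0505 to 0.0552). With spike-in scaling Acvr1 and Smad1 were 0.41 and 0.20 (adjusted p 0.381 and 0.616), and Acvr1b and Bmpr1b were −0.19 and −0.25 (0.526 and 0.390). This scaling shifts all genes by nearly the same amount, so it does not tell these 4 from other genes. Bmpr1b did not pass without the filter (0.46, edgeR adjusted p 0.0847). From GV to MI, edgeR passed 0 of 14 (median 0.03), with 0 at an unadjusted p under 0.05 and 0 with DESeq2.

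Of 29 other TGF-β family ligands and antagonists, 6 were tested between GV and MII, and Tgfb2 (−0.91) and Tgfb3 (−0.69) passed, both lower, against 11.5% lower of all genes tested. Tgfb3 did not pass without GV oocyte 3 (edgeR adjusted p 0.0533). Of 9 proprotein convertases, enzymes that cut such ligands from their precursors, edgeR passed 0 of the 6 tested, with 0 at an unadjusted p under 0.05 and 0 with DESeq2. Of 23 FGF ligands, receptors and feedback genes around Fgf8, 11 were tested, and Spry1, a feedback inhibitor, passed lower (−0.84), against the same 11.5%. Between GV and MI, edgeR and DESeq2 each passed 0 genes of these 3 lists, with 1 FGF list gene at an unadjusted p under 0.05 in edgeR.

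All 23 genes of the Kit ligand and PI3K list were tested between GV and MII, and 2 passed higher and 1 lower, against 9.06% and 11.5% of all genes tested. Rps6, a ribosomal protein, was at 58.9 ± 13.6 CPM in GV and 25.6 ± 3.66 CPM in MII and fell by 1.27 ± 0.18 on the log2 scale (edgeR adjusted p 0.000154). Rheb (0.52) and Foxo3 (0.57) passed higher, and both turned lower with spike-in scaling (−0.21 and −0.17). Rheb did not pass without the filter (0.50, edgeR adjusted p 0.0571). Foxo3 did not pass without GV oocytes 2, 4 or 5 or MII oocytes 1, 4 or 5 in turn (edgeR adjusted p up to 0.0877). Kitl itself, the ligand of Kit, was at 5.11 ± 2.45 CPM in GV and 3.71 ± 1.01 CPM in MII of batch A. Between GV and MI, edgeR passed 0 of the 23 (median 0.04), with 1 at an unadjusted p under 0.05 and 0 with DESeq2.

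Of the 23 connexins, pannexins and partners around Gja4, 9 were tested between GV and MII and edgeR passed 0, with 1 at an unadjusted p under 0.05 and 1 passing with DESeq2. Between GV and MI, 8 were tested, and Gja1 (connexin 43, the connexin of cumulus cells) passed lower. It was at 3.52 ± 3.41 CPM (mean ± SD, n = 10) in GV and 0.305 ± 0.352 CPM (n = 15) in MI, a log2 fold change of −3.42 ± 0.62 (edgeR adjusted p 0.0174). Ccnd2, also a granulosa marker, fell by 3.69 ± 0.68 on the log2 scale (0.0174), but not past the test without MI oocyte 7 (0.0532). With HTSeq counts neither passed, Gja1 at −3.27 (edgeR adjusted p 0.263) and Ccnd2 at −2.22 (0.528). Over the alternatives other than leaving out 1 oocyte, Gja1 stayed between −3.47 and −2.95 and Ccnd2 between −3.76 and −1.90. MI oocytes were denuded and cultured, and the part of attached cumulus material in the GV values of Gja1 was not tested. Of the 26 granulosa and cumulus markers, 6 were tested between GV and MI, and Gja1 and Ccnd2 were the 2 that passed. Markers with a mean of at least 1 CPM numbered 8 in GV and 4 in MI. Inhba was at a mean of 1.72 and 0.279 CPM, and Has2, higher in MI, at 1.07 and 2.39 CPM. Over all 26 the mean was lower in MI for 16, higher for 6 and equal for 4. Of the same 26, 3 were tested between GV and MII and edgeR passed 0, with 0 at an unadjusted p under 0.05 and 0 with DESeq2. The other 23 had too few counts for the test, and their means went both ways. Ccnd2 had a mean of 2.66 CPM in GV and 0.0535 CPM in MII, Hsd3b1 2.06 and 0.0818, Cyp11a1 1.93 and 0.397, and Inha 0.686 and 0.0506. Lhcgr was higher in MII, at 0.288 and 0.673 CPM. Hsd3b1 was the 1 marker of the 26 with every MII oocyte (up to 0.318 CPM) below every GV oocyte (at least 0.612 CPM). How many of all genes were separated in this way was not counted. Markers with a mean of at least 1 CPM numbered 6 in GV and 3 in MII, and of all 26 the mean was lower in MII for 14 and higher for 12.

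Of 20 genes that answer to oocyte signals in cumulus cells, 7 were tested between GV and MII in these oocyte libraries. Of the 7, 1 passed higher and 1 lower, against 9.06% and 11.5% of all genes tested. A response of cumulus cells was not measured. Eno1, a glycolytic enzyme, fell from 29.0 ± 5.07 to 14.9 ± 4.79 CPM, −1.03 ± 0.20 on the log2 scale (edgeR adjusted p 0.00261). Hmgcs1, of cholesterol synthesis, passed higher (0.41), but turned to −0.32 with spike-in scaling, did not pass without the filter or with HTSeq counts (edgeR adjusted p 0.172 and 0.0653), and passed in 3 of 12 fits without 1 oocyte, those without GV oocytes 3 or 6 or MII oocyte 2. In MI against GV, edgeR passed 0 of 8, with 1 at an unadjusted p under 0.05 and 0 with DESeq2. Of 16 markers of other ovarian cells, 2 were tested between GV and MII, and Pecam1 fell by 1.13 ± 0.21 (0.00148) but rose with HTSeq counts (0.62, edgeR adjusted p 0.0283). For MI against GV, edgeR passed 0 of the 4 tested, with 1 at an unadjusted p under 0.05 and 0 with DESeq2.

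The oocyte markers set the members in context. Of 19, 18 were tested between GV and MII, and 10 passed lower and 0 higher, against 11.5% and 9.06% of all genes tested, with a median log2 fold change of −0.63. Zp3, of the zona pellucida, fell from 1825 ± 455 to 413 ± 134 CPM (−2.21 ± 0.22, edgeR adjusted p 1.05e-05), Npm2 by 1.24 ± 0.13 (1.46e-05) and Zp1 by 1.39 ± 0.18 (7.69e-05). Between GV and MI, 1 of 18 passed, Tle6 (−0.59, edgeR adjusted p 0.0499), and it kept passing without GV oocytes 1, 3 or 10 or MI oocytes 1, 9, 12 or 15 in turn but not without any other. It missed the threshold with RLE factors (−0.59, 0.0538), without MI oocytes 4, 8, 9 and 15 (−0.56, 0.0517) and with HTSeq counts (−0.51, 0.300).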

How the data were processed

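The authors trimmed reads with Trim Galore 0.6.4, aligned them with STAR 2.7.6a and deposited raw counts per gene from HTSeq 0.12.4, whose strandedness is not stated. With RSEM 1.3.1 the authors also estimated expected counts of genes and of transcripts, deposited as such, from the trimmed reads (mm10, GENCODE VM20, ERCC sequences). Neither was normalized. Rounded expected counts without the 92 ERCC sequences were tested with edgeR 4.0.16 (filterByExpr, TMM, glmQLFTest) within each batch, and over all 37 oocytes for differences between changes and batches. Passing means a Benjamini-Hochberg adjusted p under 0.05 over all features tested, and called a fold over 2 as well. CPM and RPKM use TMM over all 37 oocytes. Transcript usage was tested with diffSpliceDGE, and count ratios with permutation tests (all 924 assignments, or 100000 resamples). Other software was R 4.3.3, DESeq2 1.42.0, limma 3.58.1, and Python 3.11.15 with scipy 1.17.1, pandas 2.3.3, matplotlib 3.10.9 and numpy 2.4.6. Of the gene identifiers, 54723 of 54844 were in the annotation.

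The members and lists were chosen with earlier results of these data known. From each list, up to 3 higher and 3 lower called genes with the smallest adjusted p were named. Genes most like a member are the 3 protein-coding genes, with a mean of at least 100 counts in each batch, that have the highest Pearson r; 1 of those for Kit is not reported here. Alternatives were no filter, RLE factors, DESeq2, HTSeq counts (also without MI oocytes 4, 8 and 9), spike-in factors, the oocyte number as a block, another transcript filter for usage, and leaving out each oocyte from GV to MII and from GV to MI. For the difference of changes only MII oocyte 1 was left out, and between the batches no single oocyte was. Leaving out MI oocytes 4, 8, 9 and 15 together was chosen after seeing the data. The filter on low counts was the main setting because the edgeR test without it failed on simulated data.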

Additional observations from a re-analysis of the deposited data

Results flagged for a closer look

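Fgf8 in GV oocyte 7 of batch B was at 309 CPM, far from the other 9 GV oocytes of its batch, which lay between 57.0 and 153 CPM. It was the 1 sample standing apart among the 21 groups of values looked at in this way, where chance gives about 1 in 20. The same oocyte had the highest Bmp15 and Gja4 and the lowest Kit level of its group, and the lowest TMM factor (0.707). The cause was not tested.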

How the results depend on the processing

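Over the stage comparisons of the 6 members, 99 of 108 alternative values kept their direction and their side of the threshold, leaving out single oocytes not counted. Of 228 values without 1 oocyte, 205 did, 13 reversed (all from GV to MI), 9 lost the pass (all Fgf8 from GV to MII) and 1 gained it (Gja4). For the difference of changes these values hold only the fits without MII oocyte 1. With spike-in scaling 4 changes passed that had not (Gdf9, Bmp15, Bmp6 and Gja4), as 5596 of 12929 genes passed and the median gene moved to −0.72, and Kit from GV to MII reversed to −0.62. From GV to MI, HTSeq counts reversed Kit to 0.0516 and Gja4 to 0.00415, and leaving out MI oocytes 4, 8, 9 and 15 reversed Bmp6 to −0.00572. Fgf8 from GV to MII kept its direction in each alternative (−1.29 to −0.49, adjusted p 0.000532 to 0.0873) and without any 1 oocyte (−0.64 to −0.43, adjusted p 0.00558 to 0.0910). Between the batches, Gdf9 reversed without the filter to −0.0032, and Bmp6 with HTSeq counts to 0.0161, and to 0.0155 also without MI oocytes 4, 8 and 9. Among list genes, spike-in scaling reversed Acvr1b (−0.19), Bmpr1b (−0.25), Rheb (−0.21), Foxo3 (−0.17) and Hmgcs1 (−0.32), and HTSeq counts reversed Pecam1 (0.62). Spike-in scaling moves all genes of a comparison together, so genes with a smaller rise turn lower. For the other changes the cause was not tested.

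Counts of called genes moved too. From GV to MII edgeR called 1095 genes (278 higher, 817 lower), 1859 without the filter (895 higher, 964 lower), 777 with HTSeq counts (101 higher, 676 lower) and 3919 with spike-in scaling (131 higher, 3788 lower). From GV to MI it called 15, 40 without the filter, 124 without MI oocytes 4, 8, 9 and 15, and 0 with HTSeq counts, with or without MI oocytes 4, 8 and 9 (927 and 885 genes at an unadjusted p under 0.05), and DESeq2 called 121. For the difference of changes it called 608, 1500 without the filter, 247 with HTSeq counts, 281 with these and without MI oocytes 4, 8 and 9, and 357 without MII oocyte 1. For transcripts from GV to MII it called 1252, and 4321 with spike-in scaling. For transcripts from GV to MI it called 0 (1615 at an unadjusted p under 0.05), 2 without the filter, and DESeq2 called 103. Usage passed in 7 genes from GV to MI, and in 40 with a mean of at least 10 counts as the filter.

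Leaving out each oocyte in turn gave ranges from GV to MI of −0.0421 to 0.0400 for Bmp6, −0.166 to 0.157 for Fgf8, −0.0789 to 0.0670 for Kit and −0.139 to 0.129 for the log2 ratio of Bmp15 to Gdf9. For Gdf9 the range was −0.328 to −0.140 and for Gja4 −0.184 to −0.0540. Called genes ranged from 0 (without MI oocyte 7) to 82 (without MI oocyte 9), called transcripts from 0 to 2, and usage from 2 (without GV oocyte 6) to 16 (without MI oocyte 9). The count of called genes moved by over 1.5 times without any of GV oocytes 1 to 9 or MI oocytes 2, 3, 4, 7, 8, 9, 11 or 13. From GV to MII called genes ranged from 842 to 1246. Log2 fold changes from GV to MII ran from −0.254 to −0.0903 for Gdf9, −0.170 to −0.0161 for Bmp15 and −0.306 to −0.0827 for Bmp6. Those of Kit ran from 0.0881 to 0.215.

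Oocytes of different stages share only a number: pairs of the same number had a median r of −0.366 (6 pairs of GV and MII) and 0.0247 (10 pairs of GV and MI). With that number as a block, edgeR called 886 genes and 532 transcripts from GV to MII and 0 genes from GV to MI (964 at an unadjusted p under 0.05). Usage passed in 191 genes from GV to MII, and in 0 from GV to MI (260 unadjusted). From GV to MII, Fgf8-202 (−0.88, adjusted p 0.138) and 7 list genes named as passing did not pass with this block: Acvr1, Bmpr1b, Rheb, Smad1, Tgfb3, Hmgcs1 and Foxo3 (0.0505 to 0.117). From GV to MI, Gja1 (−2.99, 0.214), Ccnd2 (−3.75, 0.161) and Tle6 (−0.65, 0.348) did not pass with it.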
